A study of Mus musculus with 12 samples.

Results

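The comparison described here is that of mouse embryonic stem cells (ESC) labelled as knockout for Chd8 with wild-type ESC. It uses 4 of the 12 RNA libraries of the study, chosen by their genotype and cell type labels: 2 labelled WT and 2 labelled CHD8_KO, which the study design gives as CHD8-/-. The ESC were grown in 2i, a culture medium whose kinase inhibitors hold mouse ESC at naive pluripotency. The other libraries are 2 from CHD8+/- ESC (HET) and 6 from neural progenitor cells (NPC) differentiated from ESC, 2 for each genotype. They appear below only where they bear on the ESC comparison. The labels do not give the allele, the strain, the number of clones behind a genotype or whether replicates are separate cultures. The p-values therefore rest on library-to-library spread, which may be technical, and differences between clones and differences between genotypes cannot be told apart.

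CHD8 belongs to the CHD family of chromatin remodellers, which use ATP to move nucleosomes and carry chromodomains that bind modified histone tails. It sits at the promoters of many active genes, and it is also known as a binding partner of beta-catenin that restrains Wnt target genes. Loss of 1 copy of the human gene is a well-known cause of autism, and for this reason the gene is studied in stem cells and in the neural progenitors made from them.

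The files hold 55419 transcripts under UCSC-style identifiers, without gene names beside them. The name tables used here matched 0 of the identifiers. The level of Chd8 in each library, the markers of naive pluripotency and the markers of other cell types were therefore not checked, so the genotype and cell type labels stand untested, and no sequence is shown. The features are transcripts, so 1 gene may appear several times in a count. Reads were assigned by kallisto, which shares a read among all the transcripts it fits, so counts can pass between isoforms, or between near-identical copies of a gene. The ESC libraries summed to 9062447 and 9840544 estimated counts in WT, to 12884157 and 13432274 in HET and to 14220515 and 14766212 in KO. The WT libraries were thus the shallowest. A single transcript of 2555 bases took 18.5% and 21.2% of the counts in WT and 19.7% and 27.4% in KO, ranges that overlap.

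Of 30021 transcripts with enough counts to test, 215 rose and 147 fell in KO relative to WT, by edgeR's quasi-likelihood test with Benjamini-Hochberg adjusted p under 0.05 in a fit of all 12 libraries. These 362 calls were 1.21% of the transcripts tested, with 0.716% higher and 0.49% lower. The median call that was higher stood 2.6-fold above WT (log2 fold change 1.38), and the median call that was lower stood 2.43-fold below it (log2 fold change -1.28). Changes under 2-fold made up 55 of the higher and 40 of the lower calls. Calls past 8-fold numbered 49 and 18. In counts scaled to library size after TMM (CPM, both terms set out below), the transcripts that rose summed to 12810 in WT and 26960 in KO. Those that fell summed to 17270 in WT and 8605 in KO. These sums are not shares of the counts, since TMM changes the library sizes used. The KO libraries did not overlap the WT libraries in any of the 362 calls, but they did not overlap in 42.8% of all tested transcripts either. With 2 libraries against 2, an exact permutation test of a single transcript cannot go below 0.333.

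The number of calls depended on single libraries. The adjusted p was above 0.04 in 70 of the higher and 61 of the lower calls, and under 0.01 in 5 and 1. The count fell to 74 without WT replicate 2, to 9 without KO replicate 1 and to 4 without KO replicate 2, and it was 432 without WT replicate 1. A fit of the WT and KO ESC libraries alone called 0 with edgeR, where 2940 had an unadjusted p under 0.05, while DESeq2 on the 12 libraries called 2743. The balance of directions depended on the scaling. Without TMM normalisation, which corrects library sizes for transcripts that take up much of a library, the median fold change of all transcripts moved by -0.14 (log2), and 55 calls were higher and 108 lower.

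The share of transcripts called was larger at higher abundance, and the called changes were smaller there. Abundance is the mean CPM over the 12 libraries, where CPM is the count scaled to library size. Below 1 CPM, 3 transcripts were higher and 1 lower of 5723 tested, which is 0.0699%. Between 1 and 5 CPM it was 24 and 18 of 10040, or 0.418%, and between 5 and 20 CPM it was 61 and 36 of 7271, or 1.33%. The share reached 2.85% between 20 and 100 CPM, with 92 higher and 66 lower of 5547. At 100 CPM and over, 35 were higher and 26 lower of 1440, or 4.24%. The median size of the called changes ran the other way, from a log2 fold change of 6.78 between 1 and 5 CPM to 1.91 between 5 and 20, 1.12 between 20 and 100 and 0.90 at 100 and over. The median standard error of all tested transcripts also narrowed along these classes, from 1.71 (log2) below 1 CPM to 0.17 at 100 CPM and over.

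**Figure D1:**
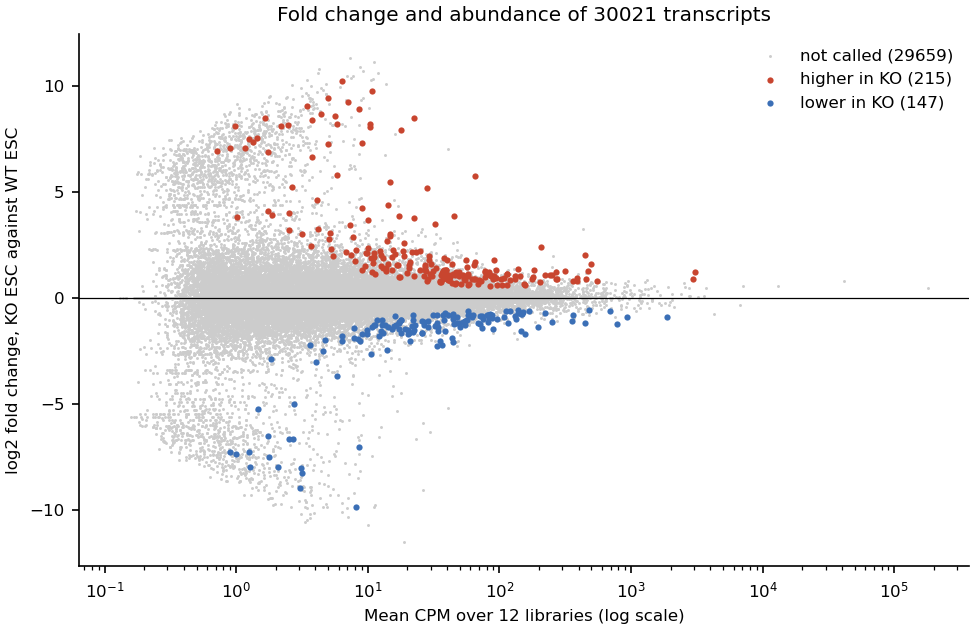
Log2 fold change of KO against WT ESC (vertical) by mean CPM over the 12 libraries on a log scale (horizontal) for 30021 tested transcripts, with 215 called higher (red), 147 called lower (blue) and the rest in grey. Calls of low abundance lie far from 0, calls of high abundance lie near it, and the bands of grey points past 5 in either direction are transcripts with few or no counts in 1 genotype that did not pass the test.

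The distance between single libraries of different genotype overlapped that between replicates in 1 of the abundance classes. At 100 CPM and over, the median difference of a transcript between 2 single libraries was 0.26 (log2) for the WT replicates and 0.20 for the KO replicates. It was 0.26 to 0.37 for the 4 pairs of 1 WT and 1 KO library. Between 1 and 5 CPM the replicates differed by 0.68 in WT and 0.57 in KO and the pairs of both genotypes by 0.67 to 0.76, so that the WT replicates lay within the range of those pairs. Below 1 CPM the same medians were 0.75 and 0.68 between replicates and 0.79 to 0.87 between genotypes. The WT replicates were less alike than the KO replicates in every abundance class. Transcript length showed a weaker pattern. Under 300 bases, 0 of 144 tested transcripts were called. Between 300 and 1000 bases 0.86% were called, with 10 higher and 8 lower of 2093. At 10000 bases and over it was 3.32%, with 8 higher and 4 lower of 361. The median standard error of tested transcripts was 0.54 (log2) between 300 and 1000 bases and 0.39 at 10000 bases and over.

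The transcript with the lowest p among those that rose was uc009tkb.1, of 1545 bases. It held 4 and 6 counts in the WT libraries, or 0.474 and 0.62 CPM. In KO it stood at 25.2 and 35.4 CPM. Its log2 fold change was 5.75 (SE 0.301, edgeR adjusted p = 0.00151). HET ESC, which this contrast did not use, had 24.4 and 22.0 CPM, so both mutant groups lay far above WT and HET lay just below KO. In NPC the transcript was abundant in every library, at 82.7 and 83.8 CPM in WT and 157 and 143 CPM in KO (log2 fold change 0.85, edgeR adjusted p = 0.134). The neighbouring row in the files, a transcript of 1541 bases, had the opposite pattern, with 11.2 and 13.4 CPM in WT ESC and no counts in the HET or KO ESC libraries. Summed with the 2 rows on each side, the level was 28.1 and 32.9 CPM in WT and 41.9 and 61.5 in KO, which is a log2 difference of 0.76. The groups still did not overlap in that sum, but the difference was far smaller than for the single transcript. Which gene or genes these rows belong to is not given by the files.

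Among the transcripts that fell, uc007urk.2, of 1731 bases, had the lowest p. It was abundant in WT ESC, at 292 and 353 CPM. In KO it stood at 98.5 and 100 CPM, and in HET at 112 and 99.4 CPM, so that HET and KO overlapped and both lay well below WT. The log2 fold change of KO against WT was -1.70 (SE 0.125, edgeR adjusted p = 0.00522), and the adjusted p was 0.0508 and 0.0603 without KO replicate 1 or 2. Here the sum with the 2 rows on each side moved nearly as far, by -1.55 (log2), since this transcript made up most of it. It was also lower in KO NPC, at 86.0 and 96.0 CPM against 192 and 208 in WT NPC (log2 fold change -1.13, edgeR adjusted p = 0.036). The 50 tested transcripts on each side of uc007urk.2 stood at a median of -0.54 (log2) in ESC, against 0.10 for those around uc009tkb.1. Neither call was made in a fit of the WT and KO ESC libraries alone, where the adjusted p was 0.273 for both. That was the highest value over their 19 and 18 alternatives, with the lowest from DESeq2 at 1.67e-26 for uc009tkb.1 and 1.67e-42 for uc007urk.2.

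A second set of transcripts was all-or-none: a count of 0 in both libraries of one genotype and at least 10 in both of the other. This rule uses no test. It found 307 transcripts with counts only in KO and 142 with counts only in WT. Most were of low abundance, with a median of 2.23 CPM in KO (range 0.858 to 27.2) and 3.13 CPM in WT (range 1.11 to 16.4). With a floor of 3 counts over both libraries of the genotype at 0, which is 0.166 CPM in WT and 0.122 CPM in KO, the median transcript was at least 13.5-fold higher in KO or at least 25.6-fold lower. By edgeR, 27 of the 294 tested among those found only in KO passed, and 9 of 142 among those found only in WT, where 1.21% of all tested transcripts did. The rule uses the same libraries as the test, so nothing is read from these counts.

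The highest of those found only in KO was uc008ekv.1, of 4677 bases. It had 0 counts in both WT ESC libraries and 315 and 347 counts in KO, or 24.2 and 30.2 CPM, at least 164-fold above the floor. HET ESC lay between them, at 9.45 and 9.05 CPM. It did not pass edgeR (adjusted p = 0.179), and DESeq2 gave an adjusted p of 0.000273. Over 18 alternatives the adjusted p ran from 0.000273 to 0.414. The next rows in the files had 24.2 and 34.3 CPM and 28.8 and 27.8 CPM in the WT libraries, so rows beside it were read in both genotypes. In NPC this transcript had 0 counts in both WT libraries and in KO replicate 1, and 7.81 CPM in KO replicate 2.

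The highest of those found only in WT was uc008sdf.2, of 3663 bases. Its WT libraries were far apart, at 2.25 and 30.6 CPM, against 0 in both KO libraries and 3.09 and 4.27 CPM in HET. It was at least 134-fold lower in KO by the mean of the WT libraries, did not pass edgeR (adjusted p = 0.161), and was at 0 in all NPC libraries. Summed with its neighbours it stood at 132 and 141 CPM in WT and 86.3 and 114 CPM in KO.

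**Figure D2:**
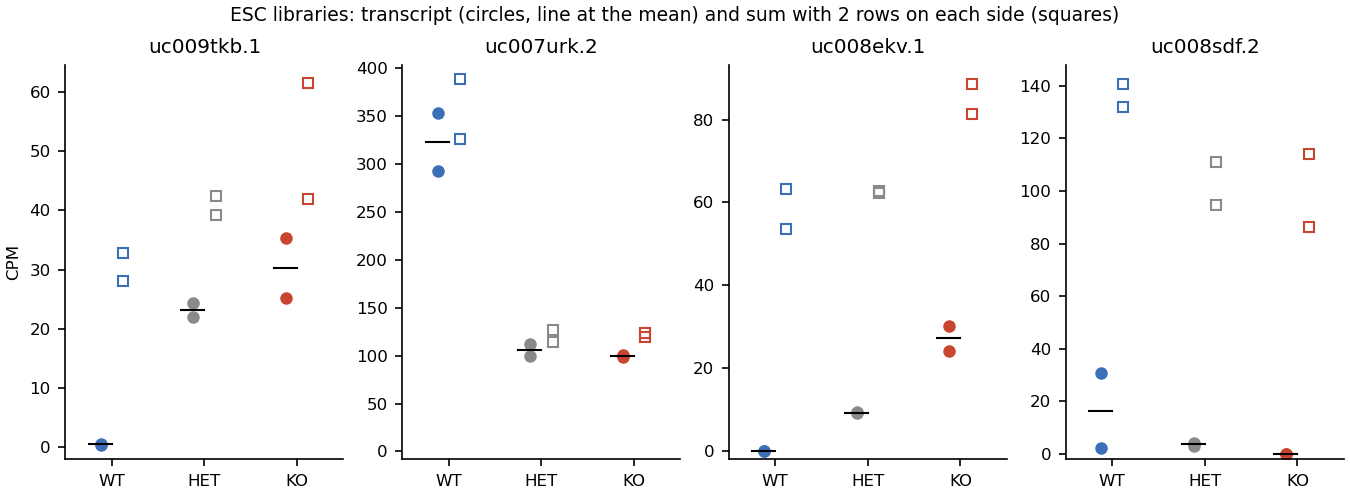
CPM in the 6 ESC libraries of the 4 named transcripts (circles, with a line at the mean of the 2 libraries) and of the sum of each with the 2 rows on each side of it in the files (open squares), by genotype. For uc007urk.2 the sums follow the transcript, while for the other 3 the sums differ between genotypes far less, relative to their level, than the transcript does.

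Being at 0 in one library and at 10 or more counts in another was nearly as frequent between replicates as between genotypes. The WT replicates differed in this way in 2587 transcripts and the KO replicates in 2513, and the 4 pairs of 1 WT and 1 KO library in 2699 to 2878. The KO libraries were deeper than the WT libraries. With every library thinned to 9062323 counts, the pair of WT replicates gave 2515, the pair of KO replicates 1863 and the pairs of both genotypes 2275 to 2414. The WT pair then lay above every pair of WT with KO. Thinning also lowered the number found only in KO from 307 to 216, while the number found only in WT was 144. In NPC, where the WT libraries were deeper than the KO libraries, the same rule found 153 only in KO and 309 only in WT, and 147 and 239 after thinning. The part of depth in what remains after thinning was not tested.

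The all-or-none transcripts were seldom all-or-none elsewhere. Of the 307 found only in KO, 67 were at 0 in both HET ESC libraries, 103 in 1 of them and 137 in neither. Of the 142 found only in WT, the numbers were 40, 66 and 36. In NPC libraries of the genotype that lacked them in ESC, 150 of the 307 had counts in both libraries and 54 in neither, against 38 and 49 of the 142. The same rule in the same direction held in NPC for 8 and 10 of them, and in the opposite direction for 5 and 2. Over all 55266 features the rule found 153 only in KO and 309 only in WT in NPC. The shares among the chosen transcripts were thus small, but above those over all features in both directions. Many of all features have few or no counts, so the 2 shares are not on equal terms. Replicates also differed within the genotype that had counts, by more than 2-fold in 81 of the 307 and 51 of the 142.

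Rows beside them usually held counts in both genotypes. A window was the sum of a transcript and the 2 rows on each side. Of the windows around transcripts found only in KO, 279 of 307 had at least 10 counts in both WT libraries, and of those around transcripts found only in WT, 137 of 142 had them in both KO libraries. The median log2 difference of these windows between KO and WT was 0.28 for the first and -0.12 for the second. It was within 0.25 of 0 in 113 (36.8%) and 59 (41.5%), and past 1 in the direction of the transcript in 51 (16.6%) and 14 (9.86%). In 71 and 59 windows the difference pointed the other way. When the all-or-none rule was applied to windows in place of transcripts, 26 were found only in KO and 10 only in WT.

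**Figure D3:**
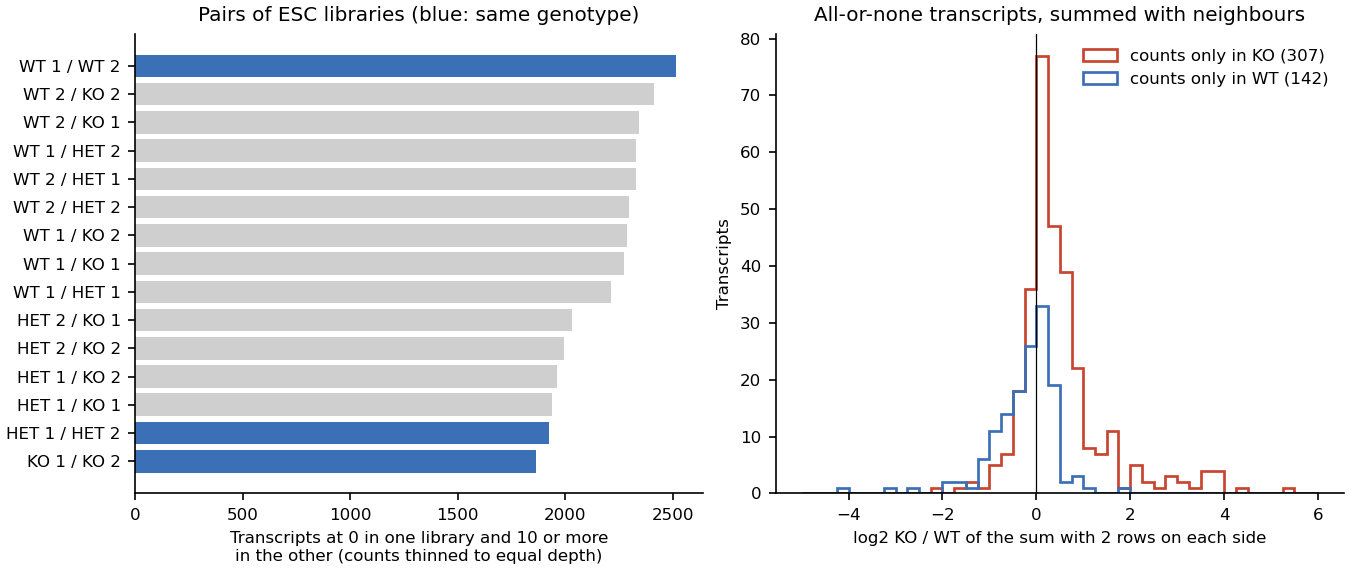
Left, number of transcripts at 0 in one ESC library and at 10 or more counts in the other, for each pair of libraries with counts thinned to equal depth; pairs of the same genotype are in blue and other pairs in grey. Right, number of all-or-none transcripts (vertical) by the log2 difference between KO and WT of their windows of 5 rows (horizontal); both sets peak within 0.25 of 0.

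The calls behaved differently by size in the same windows. For the 142 higher calls under 4-fold, the median log2 fold change was 1.08 and that of the window 0.84. For the 117 lower calls under 4-fold these were -1.15 and -0.80. Most of the change in these calls was still there when their neighbours were added. For the 49 higher calls past 8-fold, the median fell from 7.03 to 0.58, and 10 windows pointed the other way. For the 18 lower calls past 8-fold it went from -7.29 to -0.25, and 6 windows pointed the other way. Over all calls, 202 of 215 windows around higher calls and 135 of 147 around lower calls differed in the direction of the call, against 68.1% of windows in all tested transcripts. A window contains the transcript itself, so some of this sharing is built in. Calls under 4-fold made up a median of 61.5% (higher) and 61.6% (lower) of the CPM of their windows. For calls past 8-fold these medians were 20.1% and 8.92%. A transcript with a small share of its window can move the window only a little, however large its own change. The contrast by size may thus be wholly built in, and how much of it is was not tested.

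Summing every 5 consecutive rows over the whole table, before any test, gave a tighter comparison. The rows do not mark genes, so such a sum can hold transcripts of 1 gene or of several. Across sums the WT libraries correlated at r = 0.977 and the KO libraries at 0.982, where single transcripts gave 0.856 and 0.885. Pairs of 1 WT and 1 KO library had 0.958 to 0.97 across sums, below both replicate pairs, while across transcripts their range of 0.838 to 0.865 reached past the WT pair. The biological coefficient of variation, edgeR's estimate of the spread between replicates, was 0.183 for sums and 0.592 for transcripts. These correlations run across features that are not independent, and they describe the libraries.

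Of 9401 sums tested, 1134 differed between KO and WT ESC (edgeR, adjusted p under 0.05), which is 12.1%. They were evenly divided, with 564 higher and 570 lower. The changes were small, with a median of 1.76-fold for those higher and 1.73-fold for those lower, and 759 of them (66.9%) were under 2-fold. Only 73 were past 4-fold. The adjusted p was under 0.01 in 325. The groups did not overlap in any called sum, nor in 53.4% of all sums tested. Without TMM the directions stood at 283 higher and 743 lower. The count was 475 without WT replicate 2, 526 without KO replicate 1, 461 without KO replicate 2 and 127 in a fit of the WT and KO ESC libraries alone.

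Differences between KO and WT were shared by transcripts that lay near each other in the deposited row order. The files do not say what this order follows. Tested transcripts of mean CPM 2 or more were put into 199 blocks of 100 in that order. A block's value was its median log2 fold change minus that of the median block. In KO against WT ESC the block medians had an SD of 0.228 and ran from -0.70 to 0.84, with 18 blocks above 0.25 and 16 below -0.25. Between the WT replicates the SD was 0.0946, with 1 block past 0.25 on each side, and between the KO replicates it was 0.0595, with 0 past it. Blocks that differ this much between genotypes were thus almost absent between replicates.

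Of the variance in fold changes of single transcripts, 5.38% lay between blocks. Among the 10442 transcripts at 10 CPM or more on average, where counting error is smaller, this share was 14.2%, against 1.57% and 1.12% between the WT and the KO replicates. The rest, including measurement error, lay among transcripts of the same block. The fold changes of abundant transcripts were correlated with those of the next tested transcript at 0.174 and with those 10 places away at 0.143. The correlation was still 0.0982 at 50 places and 0.0827 at 100, and fell to 0.0334 at 500. Between replicates the correlation with the next transcript was slightly negative, at -0.0639 in WT and -0.0332 in KO, and it was between -0.0224 and 0.0171 from 2 to 500 places.

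Of the blocks past 0.25, those with a neighbour also past it in the same direction formed 6 runs. The runs were chosen from the ESC values, so their ESC medians are a description. The NPC libraries were not used to choose them. The first run, of 13 blocks (rows 5649 to 8687), stood at a median of 0.44 (log2), or 1.36-fold, and 78.2% of its transcripts lay above 0. It stood at 0.18 in NPC. The block before it stood at 0.00. The raised values went on past its end as set by the limit of 0.25, with the next 4 blocks at 0.20, 0.42, 0.25 and 0.42, and the block after those at -0.01. The sixth run, of 10 blocks (rows 47445 to 49838), stood at -0.56, or 0.68-fold, with 83.3% of its transcripts below 0. It was sharp at both ends, with the blocks before and after at -0.03 and 0.00, and stood at -0.50 in NPC.

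The other 4 runs had 2 blocks each. The second (rows 10798 to 11578) was the highest, at 0.77 or 1.7-fold in ESC and 0.81 in NPC. The third (rows 15377 to 15854), which holds uc007urk.2, stood at -0.55 in ESC and -0.46 in NPC. The fourth (rows 35699 to 36245) stood at -0.32 in ESC and further from 0 in NPC, at -0.65. The block after it stood at -0.195 in ESC. The fifth (rows 40554 to 41136) stood at -0.36 and -0.29. Lowered ESC values went on past both of its ends as set by the limit of 0.25. The blocks just before it stood at -0.20 and -0.20, and those just after at -0.20, -0.23, -0.17, -0.13 and -0.17. In NPC the WT replicates differed by 0.20 and 0.10 (log2) in its 2 blocks. All 6 runs thus had the same sign in the NPC libraries, which share none with the ESC comparison. Over all 199 blocks the ESC and NPC medians correlated at r = 0.822 and rho = 0.689, a description across blocks.

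**Figure D4:**
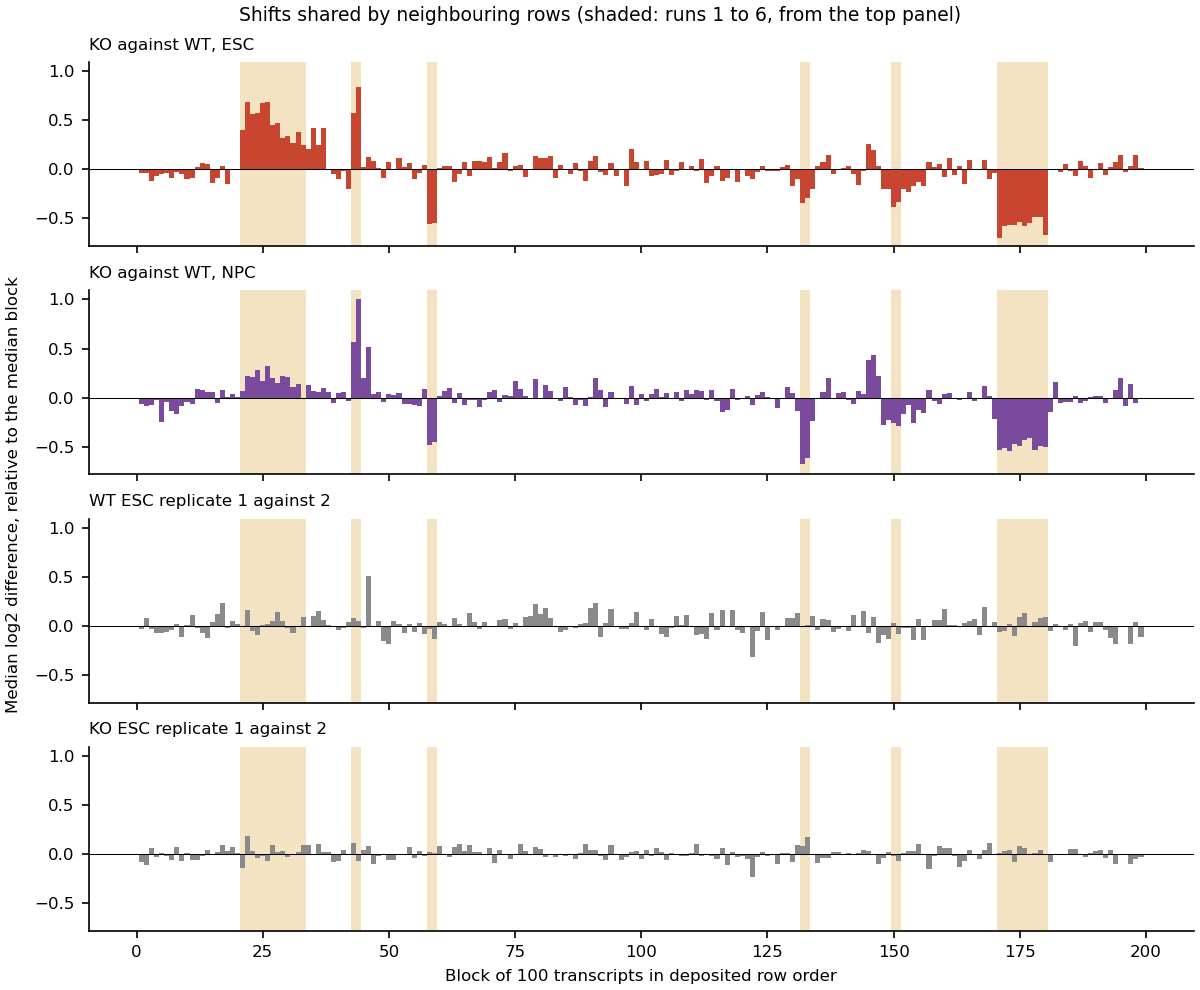
Median log2 difference of each block of 100 transcripts relative to the median block (vertical) along the deposited row order (horizontal), for KO against WT in ESC and in NPC and for the replicates of WT ESC and KO ESC; shading marks runs 1 to 6. The shaded blocks stand on the same side of 0 in ESC and NPC, except the last block of run 1, at 0.25 in ESC and -0.01 in NPC, and the replicates stay within 0.25 of 0 in all blocks but 2 in WT.

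HET and KO are compared with the same WT libraries, so their values are only set side by side. In run 2 the ESC median was 0.68 in HET and 0.77 in KO, in run 3 it was -0.49 and -0.55, and in run 1 it was 0.37 and 0.44. In these 3 runs HET stood near KO. In run 6 the HET median was -0.08 where that of KO was -0.56, and in run 4 it was -0.07 where that of KO was -0.32, so HET stood near WT. In run 5 HET lay on the other side of WT, at 0.15 where KO was at -0.36. Replicates agreed closely in all of these. In run 6, relative to the mean of the 6 ESC libraries, the WT libraries stood at 0.20 and 0.20 (log2), the HET libraries at 0.10 and 0.11, and the KO libraries at -0.32 and -0.33. In run 1 they stood at -0.25 and -0.29 in WT, at 0.06 and 0.06 in HET and at 0.19 and 0.18 in KO.

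**Figure D5:**
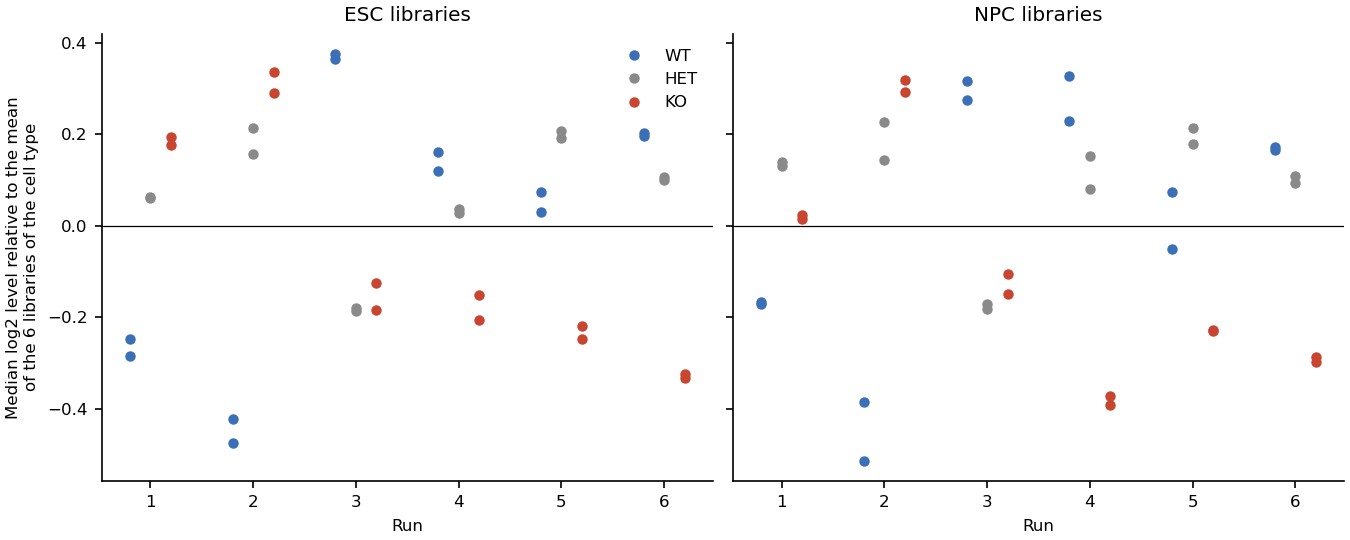
Median log2 level of the transcripts of each run in each library (vertical), relative to the mean of the 6 libraries of the same cell type, for runs 1 to 6 (horizontal) in ESC (left) and NPC (right), with 2 points a genotype. WT and KO libraries do not overlap in any run in either cell type, and HET lies next to KO in run 3 and next to WT in run 6. The runs were chosen from the ESC values, so the gap in ESC largely follows from that choice, while the NPC libraries were not used for it.

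Calls of single transcripts were concentrated in these runs. Of the 362 calls, 170 (47%) lay inside them, against 15.3% of all tested transcripts, and 167 of the 170 had the direction of their run. Run 1 held 68 higher calls and 1 lower, run 2 held 31 higher, run 3 held 13 lower and 1 higher, run 4 held 10 lower, run 5 held 2 lower and 1 higher, and run 6 held 43 lower. The runs were drawn from the same fold changes, so this share is partly fixed by that choice. The calls inside runs were smaller, with a median size of 1.13 (log2) against 1.69 outside. In NPC, 157 of the 170 inside and 139 of the 192 outside had the same sign as in ESC, where 2936 of the 4590 tested transcripts inside and 14239 of the 25431 outside did. Among the 30021 transcripts tested, 64 were called in NPC (0.213%, edgeR), and 23 of these were also among the 362.

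By size, the shift of the neighbours was a modest part of the fold change of most calls. The median of the 50 tested transcripts on each side pointed the same way as the call in 161 of 215 higher and 120 of 147 lower calls, which together is 77.6%, against 54.6% of all tested transcripts. It was past 0.25 in that direction for 176 calls (48.6%, against 12.5% of all tested). It came to at least 50% of the call's own fold change in 73. The median share was 13.5% of the fold change for higher and 17.9% for lower calls. These shares pool calls inside and outside the runs. The calls were also chosen for their own change in the same fit, which favours low shares. Measured from their neighbours, the higher calls had a median size of 1.13 (log2) in place of 1.38, and the lower calls one just under 1 in place of 1.28. When the neighbours' shift was taken out before the test, 39 transcripts were called (0.13%), with 29 higher and 10 lower, and 37 of them were among the 362. With the rows of the runs left out, 17 remained called, 14 higher and 3 lower, all 17 among the 362. Of the 362, 192 lay outside the runs, so most of those lost the call though their rows were kept. An adjusted p depends on all the transcripts tested, and many calls lay near the threshold. The 17 are thus not a count of the changes outside runs.

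Called sums of 5 rows lay both inside and outside the runs. Of the 1134 called sums, 451 (39.8%) lay inside the runs, against 14.9% of all sums, and 683 outside. With the shift of the 20 tested sums on each side taken out, 525 were called (5.58%), 258 higher and 267 lower, of which 456 were among the 1134. Outside the runs, 73.5% of the called sums had the same sign in NPC, against 59.8% of all sums there, and inside them it was 93.8% against 77.7%. In NPC, 893 sums were called between KO and WT (9.5%). Of the sums called in ESC, 293 were called in the same direction in NPC and 19 in the opposite one. Among all 893 sums called in NPC, 709 had the same sign in ESC, called there or not, and 184 the opposite one.

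A test of whether the difference between KO and WT itself differed between ESC and NPC called 74 sums (0.787%, edgeR interaction term, adjusted p under 0.05). The ESC difference was the more positive in 44 and the more negative in 30. In 58 of them the signs in ESC and NPC were opposite, which the test favours, as it picks sums whose differences diverge. Over all sums the signs were the same in 59.8% outside the runs and 77.7% inside. Of the 74 called sums, 16 lay inside the runs, against 14.9% of all sums. These calls rested on single libraries: they numbered 9 and 34 without WT ESC replicate 1 or 2, 1 and 9 without KO ESC replicate 1 or 2, 2 when WT NPC replicate 1 was left out and 16 when KO NPC replicate 2 was. They numbered 0 when WT NPC replicate 2 or KO NPC replicate 1 was left out, where 1278 and 1178 sums had an unadjusted p under 0.05. No other tool was run on this test.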

How the data were processed

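RNA was measured in 12 libraries, 2 in each of 6 groups. Per the labels' protocols they were stranded SMARTer libraries of rRNA-depleted RNA. The submitters' processing notes name cutadapt 1.16, kallisto (version not given in the sources used here) and build mm9. Per the file headers, the deposited values are estimated counts, TPM, length and effective length. Those TPM values served 1 alternative test. Estimated counts were rounded. The 252 rows equal to 2 decimals in every library, with at least 10 counts in all, were merged into 99, leaving 55266 features.

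Counts were filtered (filterByExpr, minimum 10), scaled by TMM and fitted with edgeR 4.0.16 (R 4.3.3) by robust quasi-likelihood over 12 libraries with 1 mean per group, two-sided. DESeq2 1.42.0 and limma 3.58.1 (log2(TPM + 1)) were alternatives. Standard errors are the log2 fold change over the square root of F. Windows had 0.1 CPM added. Totals ran from 9062447 to 14766212 counts. Floors cover counting error only. The scripts were tested on simulated data.

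The comparison, blocks, runs and rules were chosen with earlier results of these data known. The merging minimum, the removal of neighbours' shifts and the further fits of sums were chosen after seeing the data. Named transcripts are those of lowest p in each direction (called, no overlap, mean CPM at least 5) and the most abundant all-or-none transcript in each. Planned checks of Chd8, marker genes and gene lists were not run, as identifiers could not be paired with names.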

Additional observations from a re-analysis of the deposited data

Results flagged for a closer look

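The difference between KO and WT was larger in ESC than in NPC for uc009tkb.1, by 4.91 on the log2 scale (SE 0.368, edgeR interaction term, adjusted p = 0.0256), the only transcript of 30021 called by this test with all libraries. With 1 library left out the test called 30 (WT ESC replicate 2 left out), 2 (WT ESC replicate 1) and 3 (KO ESC replicate 1), and at most 1 without each of the other WT and KO libraries. The transcript held 4 and 6 counts in WT ESC, and the next row had 11.2 and 13.4 CPM there and 0 in KO ESC. Summed with the 2 rows on each side, ESC stood at 28.1 and 32.9 CPM in WT and 41.9 and 61.5 in KO. In NPC these sums were 126 and 126 CPM in WT and 231 and 212 in KO. Whether the difference in these sums varied between cell types was not tested. The transcript itself was higher in KO than in WT in both cell types, without overlap of the libraries. The call ended without WT ESC replicate 1 (adjusted p = 0.0763), without KO ESC replicate 2 (0.0553) and without any of the 4 WT or KO NPC libraries (0.0529 to 0.12), while the difference stayed between 4.65 and 5.13. With the replicate number as a block it was 4.90 (adjusted p = 0.0684). Among sums of 5 rows, 74 differed in the same test, and the report gives their number without each library.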

How the results depend on the processing

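The count of 362 transcripts called in ESC was 0 in fits of the WT and KO ESC libraries alone and of the ESC libraries alone (2940 and 3407 at an unadjusted p under 0.05), 2743 with DESeq2, 223 with limma, 163 without TMM, 214 without the low-count filter, 885 at a mean CPM of at least 10 and 1134 as sums of 5 rows. With the neighbours' shift removed it was 39, a setting chosen after seeing the data. Without the rows of the runs, also so chosen, it was 17, though 192 of the 362 lay outside the runs. Without 1 library it went from 4 to 432, where the library left alone is assumed to vary like the other groups. With the replicate number as a block it was 53. It stayed between 307 and 375 under the 5 other alternatives: DESeq2's size factors, upper-quartile factors, no merging, thinning, and without the most abundant transcript. The 1134 sums became 127 in the fit of WT and KO ESC alone, 525 with the neighbours' shift removed, 461 to 1015 without 1 library, 1070 as sums of 3 rows and 939 as sums of 10. The 64 NPC calls became 2237 with DESeq2 and 0 to 7 without 1 library (0 when replicate 1 of WT NPC or of KO NPC was left out, with 2615 and 2488 at an unadjusted p under 0.05). The 449 all-or-none transcripts became 725 at a minimum of 5 counts, 219 at 20 and 36 in windows. With 1 library left out of the rule they numbered 1157 to 1372. The SD of block medians stayed between 0.219 and 0.244 in 13 alternatives. With limma, runs 1, 2, 3, 5 and 6 stood at 0.34, 0.59, -0.43, -0.26 and -0.43, and run 5 stood at -0.27 without WT ESC replicate 1. No alternative turned a direction of a run or a named transcript.

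Across single transcripts, replicate numbers were not found to pair the WT with the KO ESC libraries. The other groups were not compared in this way. The differences between replicates 1 and 2 in WT and in KO ESC correlated at r = 0.00534 across transcripts, and at 0.0301 across those at 10 CPM or more on average. With the replicate block, 53 transcripts were called in ESC and 3 in NPC, and 1144 sums of 5 rows in ESC.

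The lowest of the all-or-none transcripts had 0.858 CPM where present, against a floor of 0.166 CPM in WT.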
